A study of Mus musculus with 12 samples.

Results

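Ubiquitin-specific proteases are the largest family of deubiquitinating enzymes, the proteases that cut ubiquitin from proteins or trim ubiquitin chains. Removal of ubiquitin spares a protein from the proteasome, resets receptors at endosomes and ends signals that are carried by ubiquitin chains, among them those that macrophages use downstream of cytokine and pattern recognition receptors. A few members have lost or nearly lost catalytic activity and serve as scaffolds. The messages of this family were followed here in mouse bone marrow-derived macrophages polarized with IFNG or with IL4. Members were all features of the count tables whose name, alone or as 1 part of a joined name, is Usp followed by a number and at most 1 letter, with Usp18 and Usp9y left out. The rule gave 48 of the 19549 features. Of these, 44 carried a Usp symbol alone. The other 4, Ahsa2_Usp34, Cct8_Usp16, Thoc1_Usp14 and Usp37_Vil1, join a Usp gene with a neighbour, so their reads cannot be given to the Usp gene alone.

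The macrophages were grown from bone marrow of untreated female FVB mice and polarized for 4 h. IFNG, used at 200 units/mL, drives classical activation, and IL4, used at 40 ng/mL, drives alternative activation. Total mRNA came from about 10% of the cells, and polysome-associated mRNA was the pool found with more than 3 ribosomes on a 5 to 50% sucrose gradient of the remaining lysate. The 4 groups were IFNG polysome, IL4 polysome, IFNG total and IL4 total, with 3 libraries each and no unpolarized cells. Whether replicates are separate animals or cultures is not labelled, and p-values then cover only the spread between libraries, which may be technical.

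Polysome libraries held 2563955 to 8789480 counts and total libraries 10443200 to 22014162. All 12 macrophage markers on the list, such as Csf1r and Adgre1, had reads in every group, and their sum was 14956 to 24920 CPM (counts scaled to library size) in IFNG polysome and 9917 to 11038 CPM in IL4 polysome libraries, and 19827 to 31565 CPM in IFNG total and 10939 to 20806 CPM in IL4 total libraries. T and NK cell markers summed to at most 0.369 CPM in a library, with Cd3e, Cd3g, Cd8a and Ncr1 at 0. Neutrophil markers summed to 3.99 to 8.13 CPM in IFNG polysome and 0.545 to 4.16 CPM in IL4 polysome libraries, and to 10.6 to 33.5 CPM in IFNG total (8 of 8 markers read) and 1.20 to 4.54 CPM in IL4 total libraries (5 of 8). Dendritic cell markers summed to 17.3 to 44.8 CPM in IFNG polysome and 0.681 to 2.12 CPM in IL4 polysome libraries, and to 8.50 to 26.9 CPM in IFNG total and 0.552 to 1.60 CPM in IL4 total libraries, with Flt3 at 0 throughout. The IFNG sums were mostly Clec9a and Xcr1, which averaged 14.7 and 19.2 CPM in IFNG polysome and 6.95 and 9.42 CPM in IFNG total libraries. The other dendritic cell markers averaged at most 0.660 CPM in a group. Of these, Zbtb46 and Cd209a had lower and Siglech and Ccr7 higher means with IFNG in both RNA fractions. Stromal markers summed to 1.11 to 40.1 CPM in IFNG polysome and 1.51 to 11.9 CPM in IL4 polysome libraries, and to 0.950 to 12.1 CPM in IFNG total and 1.20 to 11.3 CPM in IL4 total libraries. B cell markers summed to 0.210 to 0.369 CPM in IFNG polysome and 0 to 3.03 CPM in IL4 polysome libraries, and to 2.44 to 6.21 CPM in IFNG total and 3.62 to 4.68 CPM in IL4 total libraries, with Ms4a1 and Pax5 at 0. The part of these markers in the IFNG against IL4 differences below was not tested. The cytokine targets Irf1 and Nos2 were higher, and Arg1 and Retnla lower, with IFNG than with IL4 in both RNA fractions, each with adjusted p at or below 4.07e-05. In such bulk libraries, fewer cells of a type and less RNA per cell cannot be told apart.

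Most of the family was read in these cells. Of the 48 members, 40 had enough counts to be tested, 36 of them with a symbol of their own. Usp26, Usp29, Usp44, Usp50 and Usp51 had no read in any library, and Usp13, the close relative of the chain-recycling enzyme Usp5, had 1 read in all, in IFNG polysome replicate 2. Usp27x, which like Usp51 is a close copy of Usp22, had 17 reads over the 12 libraries. Usp43 was read with IFNG only, at 15, 1 and 5 counts in the IFNG polysome libraries against 0 in each IL4 polysome library, and at 3, 0 and 6 counts in the IFNG total libraries against 0 in each IL4 total library. Set against 3 counts over the IL4 group, its summed IFNG counts were 4.76-fold higher on polysomes and 3.83-fold higher in total mRNA after scaling. These ratios allow for counting error in the IL4 groups only and take the few IFNG counts as exact, so they are not lower bounds. Usp43 is named because groups of it were at 0 counts, and it was too low to be tested.

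As a sum over all 48 members, the family took 1860 ± 231 CPM in IFNG polysome, 1414 ± 190 CPM in IL4 polysome, 1089 ± 135 CPM in IFNG total and 903 ± 62.8 CPM in IL4 total libraries (SD, n = 3 each). The 6 polysome libraries spanned 1243 to 2121 CPM and the 6 total libraries 834 to 1201 CPM, so the polysome and total libraries did not overlap. Over the 44 members with a symbol of their own, the means were 1594 CPM in IFNG polysome and 1170 CPM in IL4 polysome libraries. They were 911 CPM in IFNG total and 740 CPM in IL4 total libraries. For these members the lowest polysome library, at 1071 CPM, was only just above the highest total library, at 1057 CPM. Of the 40 tested members, 22 had their highest mean in IFNG polysome, 12 in IL4 polysome, 2 in IFNG total and 4 in IL4 total libraries. The median ratio of polysome to total CPM was 1.75 with IFNG and 1.65 with IL4, and 33 of the 40 members had a ratio over 1 with each cytokine. Over all 10421 features tested, the median ratio was 0.997 with IFNG and 1.04 with IL4.

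**Figure D1:**
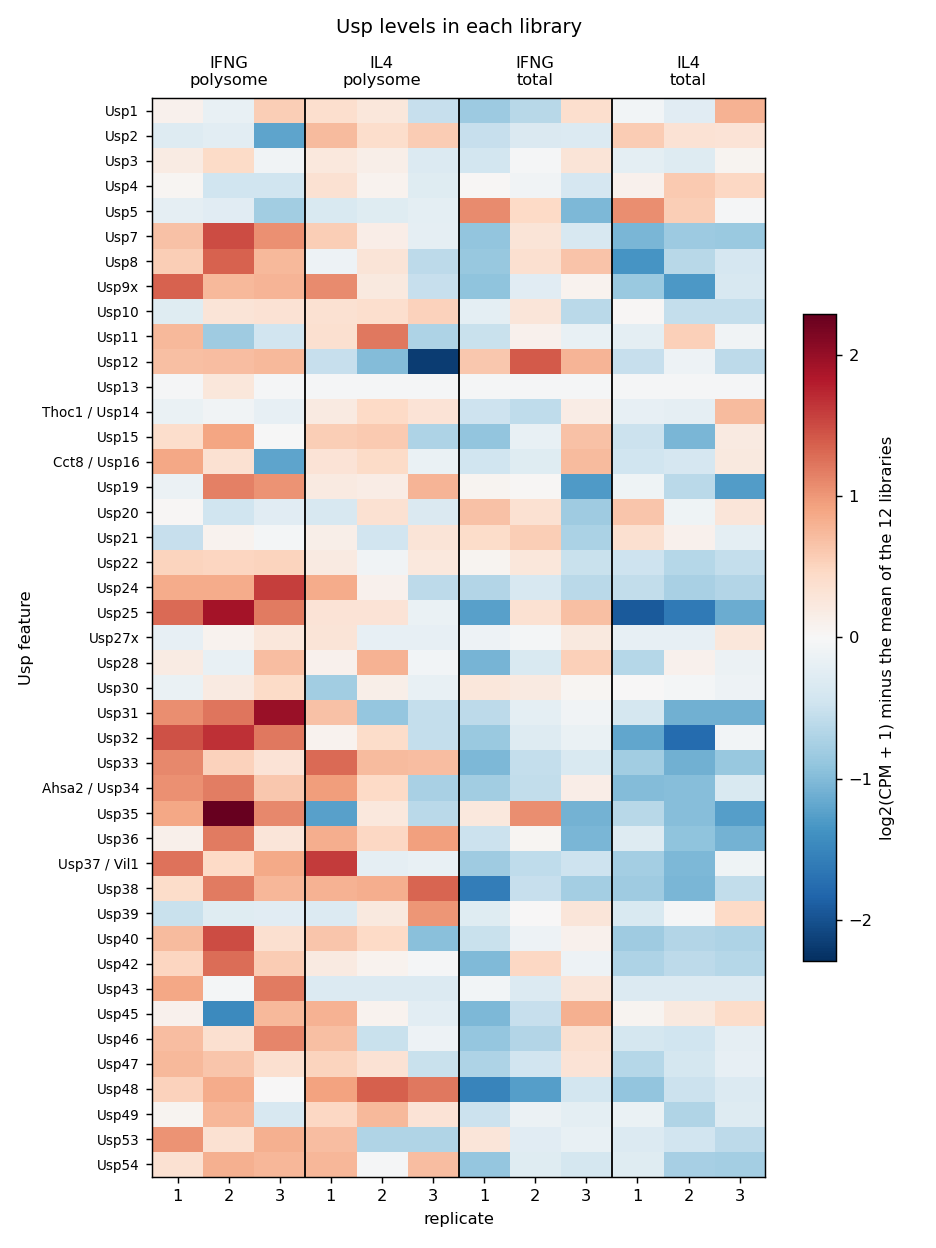
Level of each Usp feature with a read, in each of the 12 libraries, as log2(CPM + 1) minus the mean of that feature over the 12 libraries. Red squares are above and blue squares below the feature's own mean, so rows show how a feature varies and not which feature is most abundant. Most rows are redder in the 6 polysome columns than in the 6 total columns, and Usp5 is an exception.

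The polysome against total comparison asked which messages were over-represented among those with more than 3 ribosomes, averaged over the cytokines. Usp messages leaned to the polysome side: 16 of the 40 tested members (40%) were higher and 1 (2.5%) lower in polysome-associated than in total mRNA, while 22.6% of all features were called higher and 25.7% called lower. A call here is an adjusted p under 0.05 in edgeR's quasi-likelihood test, with Benjamini-Hochberg adjustment over all features. The median log2 fold change was 0.80 for the members and 0.04 for all features. Among the 36 members with a symbol of their own, 14 were higher and 1 was lower. In 5 members, Usp33, Usp36, Usp38, Usp48 and Usp54, every polysome library was above every total library, which was so for 6.69% of all features, and no member had every polysome library below, which was so for 10.5% of all features.

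Of 9 members tied to immune and inflammatory signalling, 3 were higher on polysomes, against 22.6% of all features. The median log2 fold change was 0.44 over the 9 and 0.04 over all features. Roles were assigned with earlier results of these data known, and differences between roles were not tested. Usp38, which acts on the kinase TBK1 in the type I interferon pathway, had 38.1, 65.8 and 49.1 CPM in IFNG polysome and 49.9, 51.3 and 73.0 CPM in IL4 polysome libraries, against 8.75, 19.4 and 16.1 CPM in IFNG total and 15.7, 13.2 and 18.9 CPM in IL4 total libraries. The lowest polysome library of Usp38 was thus above its highest total library. The log2 fold change of Usp38 was 1.83 (SE 0.30, adjusted p = 6.07e-05). Usp25, which trims chains on TRAF adaptors, had 219, 333 and 202 CPM in IFNG polysome and 110, 109 and 78.7 CPM in IL4 polysome libraries, against 36.5, 112 and 142 CPM in IFNG total and 22.3, 27.8 and 39.5 CPM in IL4 total libraries. Its polysome libraries lay above the total libraries of the same cytokine, but the IL4 polysome and IFNG total libraries overlapped. The log2 fold change of Usp25 was 1.55 (SE 0.33, adjusted p = 5.98e-04). Usp31, reported in human cells to restrain NF-kB signalling, was higher by a log2 fold change of 1.31 (SE 0.33, adjusted p = 0.00250). The 6 other members of this group, Usp2, Usp4, Usp11, Usp12, Usp15 and Usp21, were not called, with log2 fold changes of -0.49 (Usp12) to 0.59 (Usp15).

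Of 16 tested members that act on chromatin, the genome or the cell cycle, 6 were higher on polysomes and none was lower. Of all features, 22.6% were higher and 25.7% lower. The median log2 fold change of the 16 was 0.80. Usp48, a nuclear enzyme that acts on histone H2A and on the NF-kB subunit RelA, had 28.5, 35.7 and 19.6 CPM in IFNG polysome and 37.5, 51.7 and 46.1 CPM in IL4 polysome libraries, against 6.09, 7.44 and 14.2 CPM in IFNG total and 9.86, 13.5 and 15.4 CPM in IL4 total libraries. The polysome and total libraries did not overlap, and the log2 fold change was 1.70 (SE 0.31, adjusted p = 1.64e-04). Usp24, an enzyme linked in human cells to p53 and the damage sensor DDB2, was higher by 1.35 (SE 0.30, adjusted p = 9.84e-04). Usp36, the nucleolar member that stabilizes MYC, was higher by 1.29 (SE 0.30, adjusted p = 0.00148), and the joined feature Usp37_Vil1 by 1.46 (SE 0.35, adjusted p = 0.00171), both as log2 fold changes. Usp7, the enzyme of p53 and its ligase Mdm2, averaged 160 ± 45.9 CPM in IFNG polysome and 85.3 ± 22.9 CPM in IL4 polysome libraries, against 62.5 ± 26.5 CPM in IFNG total and 38.8 ± 3.16 CPM in IL4 total libraries (SD, n = 3 each). Its log2 fold change was 1.25 (SE 0.29, adjusted p = 0.00139). Usp42, the sixth, was higher by 0.87 (adjusted p = 0.0225) with Lars2 reads counted and missed the threshold without them (0.73, adjusted p = 0.0515), without IFNG polysome replicate 2 (0.72, adjusted p = 0.0793) or without IFNG total replicate 1 (0.71, adjusted p = 0.0622). Usp22, the histone H2B deubiquitinase of the SAGA complex, just missed it at 0.61 (adjusted p = 0.0528), as did Usp47 at 0.74 (adjusted p = 0.0511) and Usp46 at 0.87 (adjusted p = 0.0543). Usp1, which works on FANCD2 and PCNA, had a log2 fold change of 0.16 (95% interval -0.53 to 0.86), and the catalytically inactive splicing factor Usp39 one of -0.02 (95% interval -0.64 to 0.60).

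Among 9 members tied to membrane traffic and organelles, 4 were higher on polysomes, against 22.6% of all features, with a median log2 fold change of 1.03. Usp33, which acts on beta-arrestin and receptor recycling, had 41.0, 27.1 and 23.3 CPM in IFNG polysome and 47.3, 31.2 and 31.0 CPM in IL4 polysome libraries, against 8.56, 12.4 and 14.4 CPM in IFNG total and 10.2, 8.09 and 9.74 CPM in IL4 total libraries. The polysome and total libraries of Usp33 did not overlap either, and the log2 fold change was 1.67 (SE 0.29, adjusted p = 1.25e-04). Usp32, a membrane-bound enzyme of the endosome and Golgi, was higher by 1.48 (SE 0.36, adjusted p = 0.00192), Usp9x, an X-linked enzyme with substrates in cell survival and trafficking, by 1.27 (SE 0.32, adjusted p = 0.00263) and Usp19, which has an isoform anchored in the endoplasmic reticulum, by 1.05 (SE 0.33, adjusted p = 0.0113), each as a log2 fold change. Usp8, the endosomal enzyme that partners with Stam, had 0.72 (adjusted p = 0.0676), and Usp35 1.03 (adjusted p = 0.0756). Usp30, the enzyme of the mitochondrial outer membrane that opposes Parkin, had -0.12 (95% interval -0.86 to 0.62).

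The group of less studied members had 3 of 4 called higher, against 22.6% of all features, with a median log2 fold change of 1.29. Usp54 had a log2 fold change of 1.32 (SE 0.35, adjusted p = 0.00397), Usp40 one of 1.14 (adjusted p = 0.0109) and the joined feature Ahsa2_Usp34 one of 1.25 (adjusted p = 0.00267). Usp53, known in the mouse for a mutation that causes deafness, had 2.29, 1.05 and 1.85 CPM in IFNG polysome and 1.63, 0 and 0 CPM in IL4 polysome libraries, against 0.951, 0.349 and 0.432 CPM in IFNG total and 0.290, 0.184 and 0.0633 CPM in IL4 total libraries. Its fold change of 1.74 on the log2 scale had an SE of 0.75 and was not called (adjusted p = 0.0593).

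Of the 2 tested features of ubiquitin recycling, 1 was lower on polysomes, against 25.7% of all features. Usp5, which takes apart free ubiquitin chains, was the only member of the 40 called lower there, with 70.0, 67.3 and 46.2 CPM in IFNG polysome and 62.9, 66.6 and 68.5 CPM in IL4 polysome libraries, against 173, 110 and 39.0 CPM in IFNG total and 169, 119 and 79.3 CPM in IL4 total libraries. The total libraries of Usp5 were widely spread, and IFNG total replicate 3 was below every polysome library. The log2 fold change of Usp5 was -0.85 (SE 0.32, adjusted p = 0.0351), and this call was lost in 9 of 18 other settings. These were limma-voom (adjusted p = 0.0830) and leaving out any of 8 libraries, namely IFNG polysome replicate 2 or 3, IFNG total replicate 1, each IL4 polysome replicate, and IL4 total replicate 1 or 2, with log2 fold changes of -0.61 (adjusted p = 0.130, without IFNG total replicate 1) to -0.89 (adjusted p = 0.0520, without IFNG polysome replicate 2). The joined feature Thoc1_Usp14, which holds the proteasome-bound enzyme Usp14, had a log2 fold change of 0.14 (95% interval -0.44 to 0.72).

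**Figure D2:**
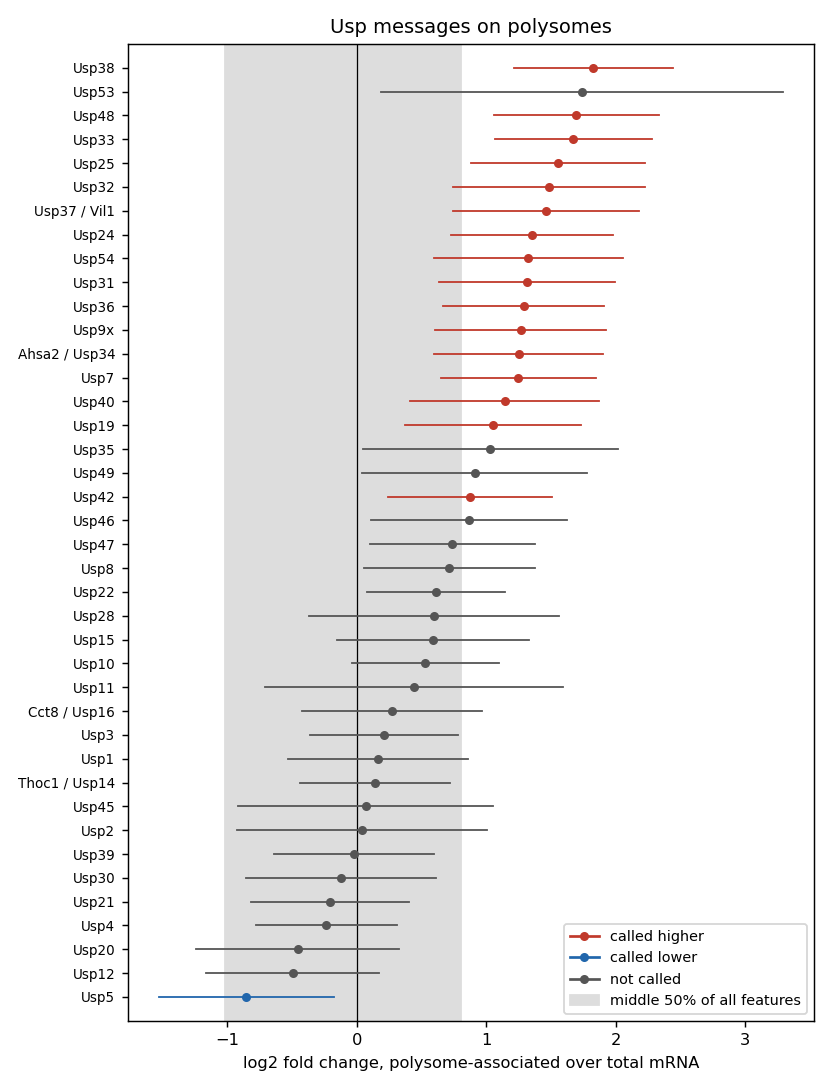
Log2 fold change of polysome-associated over total mRNA, averaged over IFNG and IL4, for the 40 tested Usp features. Points are edgeR estimates with 95% intervals, red where called higher, blue where called lower, and the grey band is the middle 50% of all features. Usp38 has the largest value, 1.83, and Usp5 the lowest, -0.85.

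Lars2, a mitochondrial tRNA synthetase gene, took 1.78 to 29.3% of the counts in IFNG polysome and 5.15 to 18.1% in IL4 polysome libraries, against 0.341 to 2.00% in IFNG total and 0.903 to 1.47% in IL4 total libraries. With its reads left out before scaling, 15 of the 40 members were higher and 1 was lower. Of all features, 18.2% were higher and 28.2% lower in that setting. The median log2 fold change there was 0.67 for the members and -0.09 for all features. Polysome libraries were also the shallower ones, and the part of depth was not tested.

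Close relatives within the family can be set side by side. Usp20 and Usp33, which are near paralogs, had log2 fold changes of polysome over total mRNA of -0.46 (95% interval -1.24 to 0.33) and 1.67 (1.07 to 2.28). Usp12 and Usp46, which both need the cofactor Wdr48, had -0.49 (-1.16 to 0.18) and 0.87 (0.11 to 1.63). Usp25 and Usp28 had 1.55 (0.88 to 2.23) and 0.60 (-0.37 to 1.56). In the trio of Usp4, Usp11 and Usp15 the values were -0.23 (-0.78 to 0.31), 0.44 (-0.71 to 1.60) and 0.59 (-0.15 to 1.33). The intervals of the Usp20 and Usp33 pair do not overlap, those of the other relatives do, and the difference between genes was not tested.

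Promoters are shown for Usp12, Usp25, Usp31 and Usp35, the members called in at least 1 of the IFNG against IL4 comparisons that follow, to set their sequence beside the response. They are from RefSeq, on build GRCm38.p6, and run 5′ to 3′ on the gene's strand. Each spans 250 bases before to 50 bases after an annotated start, which need not be the outermost start of the gene. The window of Usp25 lies wholly within its gene, which begins at chr16:77013684. Capitals mark GC boxes (GGGCGG on either strand). Usp12 lies on the minus strand at chr5:146794907-146795206, Usp25 on the plus strand at chr16:77013819-77014118, Usp31 on the minus strand at chr7:121707393-121707692 and Usp35 on the minus strand at chr7:97332060-97332359.
Usp12: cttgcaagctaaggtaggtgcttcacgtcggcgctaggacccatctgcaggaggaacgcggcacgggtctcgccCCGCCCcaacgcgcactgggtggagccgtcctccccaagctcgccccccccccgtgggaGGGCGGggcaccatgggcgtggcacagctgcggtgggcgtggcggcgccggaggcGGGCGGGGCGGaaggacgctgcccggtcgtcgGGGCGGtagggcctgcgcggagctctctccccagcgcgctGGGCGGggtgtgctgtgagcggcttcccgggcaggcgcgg
Usp25: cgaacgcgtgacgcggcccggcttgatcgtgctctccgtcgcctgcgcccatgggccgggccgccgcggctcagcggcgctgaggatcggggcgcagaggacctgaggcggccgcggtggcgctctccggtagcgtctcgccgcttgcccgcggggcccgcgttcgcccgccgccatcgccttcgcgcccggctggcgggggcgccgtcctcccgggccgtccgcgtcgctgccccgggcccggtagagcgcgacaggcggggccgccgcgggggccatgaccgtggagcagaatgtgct
Usp31: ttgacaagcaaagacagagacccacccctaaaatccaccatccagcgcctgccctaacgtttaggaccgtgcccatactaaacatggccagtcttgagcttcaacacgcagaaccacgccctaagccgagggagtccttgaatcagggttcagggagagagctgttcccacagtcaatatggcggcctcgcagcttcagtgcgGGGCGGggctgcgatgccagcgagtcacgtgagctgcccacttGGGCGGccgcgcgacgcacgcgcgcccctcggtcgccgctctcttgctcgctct
Usp35: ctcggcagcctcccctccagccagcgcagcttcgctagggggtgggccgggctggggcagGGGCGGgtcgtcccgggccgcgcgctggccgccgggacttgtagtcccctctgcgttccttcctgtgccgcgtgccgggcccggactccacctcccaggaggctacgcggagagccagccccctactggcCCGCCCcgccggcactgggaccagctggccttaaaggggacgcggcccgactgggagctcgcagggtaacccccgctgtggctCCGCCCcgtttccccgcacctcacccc
Usp12 holds 6 GC boxes, of which 1 pair overlaps by a base, Usp31 holds 2, Usp35 holds 3 and Usp25 holds 0. GC content was 75.7% in Usp12, 79% in Usp25, 61.7% in Usp31 and 75.3% in Usp35.

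None of these 4 promoters held a match to the STAT6 kind of motif (TTC and GAA with any 4 bases between) or the interferon response core (GAAA and GAAA with any 2 bases between), searched on both strands. Of the 48 members, 37 had a promoter in the table, and those of Usp1, Usp5, Usp9x, Usp14, Usp22, Usp33, Usp39, Usp42, Usp43, Usp44 and Usp53 were not analysed here. Over the 37, the STAT6 kind was found in 2 (5.41%, against 8.01% of the 27025 genes with a promoter in the table) and the interferon response core in 1 (2.7%, against 3.99%). The STAT6 kind was in Usp3 and Usp8 and the response core in Usp49, and none of these members was called between the cytokines. GC boxes were present in 26 (70.3%, against 38.2% of these genes) and TATAAA in 2 (5.41%, against 15.7%). The median promoter GC content was 65% for the members and 52.7% for all 32851 promoters of the table, with a median of 28 CpG sites in the members and 7 in all promoters. Neither background was limited to genes read or tested in these libraries, so these shares are not a trait of the Usp family alone. The windows of some other members, such as Usp7 and Usp34, also lay within the gene. A match describes letters in this window, and nothing on a factor follows from a match or from its absence.

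The comparison of IFNG with IL4 on polysomes asked which messages differed among those being translated. Here Usp12, Usp31 and Usp35 were higher with IFNG, which is 3 of 40 members (7.5%), as against 7.54% of all features called higher. No member was lower by edgeR's test, against 6.58% of all features. At an unadjusted p under 0.05, 8 of the 40 members were higher and 1, Usp2, was lower, against 13.3% of all features higher and 13.7% lower. No member was lower with DESeq2 or limma-voom. The median log2 fold change was 0.18 for the members and -0.06 for all features. In 10 members every IFNG library was above every IL4 library, and in 4 every IFNG library was below, which compares with 15.2% and 16.0% of all features. The share of members called higher was near that of all features.

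Usp12 works with the cofactor Wdr48 on histones and receptors. It had 22.8, 22.9 and 23.6 CPM in IFNG polysome libraries, against 9.13, 6.37 and 2.27 CPM in IL4 polysome libraries. The IFNG libraries were nearly level and all above the IL4 libraries, with a log2 fold change of 1.91 (SE 0.48, adjusted p = 0.00903). Usp31 had 43.6, 49.0 and 83.5 CPM in IFNG polysome libraries, against 33.2, 10.6 and 13.6 CPM in IL4 polysome libraries. The groups did not overlap, although IL4 replicate 1 came close to the IFNG libraries, and the log2 fold change was 1.58 (SE 0.47, adjusted p = 0.0256). Usp35, an enzyme found at mitochondria in human cells, had 9.43, 26.5 and 11.1 CPM in IFNG polysome libraries, against 1.36, 5.67 and 2.65 CPM in IL4 polysome libraries. Replicate 2 was the highest in both groups, the groups did not overlap, and the log2 fold change was 2.34 (SE 0.70, adjusted p = 0.0272).

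Just outside the threshold stood Usp32 and Usp25. Usp32 had 31.6, 37.2 and 26.6 CPM in IFNG polysome libraries, against 11.6, 14.9 and 7.19 CPM in IL4 polysome libraries, which gave a log2 fold change of 1.50 (SE 0.51, adjusted p = 0.0513). Usp25, with the values given above, had a log2 fold change of 1.34 (SE 0.46, adjusted p = 0.0534), and its IFNG and IL4 polysome libraries did not overlap. With the replicate block, 5 members were called, Usp25 and Usp32 being added (adjusted p = 0.0397 for Usp25 and 0.0442 for Usp32). Of all features, 8.74% were higher with that block. With a block of its own in each RNA fraction, which was chosen after the data were seen, 6 were called, and the endosomal enzyme Usp8 joined (1.04, adjusted p = 0.0261). In that setting 11.4% of all features were higher. Without the block Usp8 had 48.0, 83.4 and 54.3 CPM in IFNG polysome libraries, against 29.7, 39.7 and 20.8 CPM in IL4 polysome libraries (adjusted p = 0.139). The calls rest on few libraries: without IL4 polysome replicate 3 no member was called, against 4.72% of all features higher and 3.29% lower. The log2 fold changes were then 1.56 for Usp12 (adjusted p = 0.0515), 1.39 for Usp31 (adjusted p = 0.117) and 2.26 for Usp35 (adjusted p = 0.0959). The call of Usp35 also needed replicate 2 of IFNG polysome and replicate 1 of IL4 polysome, and that of Usp31 replicate 3 of IFNG polysome and replicate 2 of IL4 polysome (adjusted p = 0.168 and 0.114 for Usp35, and 0.0970 and 0.139 for Usp31, without them).

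Further members were not called on polysomes. Usp7 had a log2 fold change of 0.91 (adjusted p = 0.150) and Usp24 one of 0.91 (adjusted p = 0.166), both without overlap of the IFNG and IL4 polysome libraries. Usp2, whose message follows the circadian clock in many tissues, had the most negative value, -1.52 (SE 0.69, adjusted p = 0.153), with 1.59, 1.68 and 0.369 CPM in IFNG polysome libraries, against 4.22, 3.19 and 3.78 CPM in IL4 polysome libraries. Each IFNG library of Usp2 was below each IL4 library, at levels of a few CPM.

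In total mRNA, Usp12 and Usp25 were higher with IFNG than with IL4, which is 2 of 40 members (5%), as against 7.08% of all features. No member was lower by edgeR's test, against 3.93% of all features, and none was lower at an unadjusted p under 0.05, with DESeq2 or with limma-voom. At an unadjusted p under 0.05, 4 of the 40 members were higher, against 12.2% of all features higher and 9.26% lower. The median log2 fold change was 0.20 for the members and 0.04 for all features. Every IFNG library was above every IL4 library in 4 members and below in 2, which compares with 13.4% and 12.3% of all features. Usp12 was thus called in both RNA fractions, Usp25 in total mRNA alone, and Usp31 and Usp35 on polysomes alone, although the differences between the fractions were not called.

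Usp25 had 36.5, 112 and 142 CPM in IFNG total libraries, against 22.3, 27.8 and 39.5 CPM in IL4 total libraries. IFNG total replicate 1 lay below IL4 total replicate 3, so the groups overlapped, while the log2 fold change was 1.70 (SE 0.46, adjusted p = 0.0169). Usp12 had 21.6, 37.8 and 24.3 CPM in IFNG total libraries, against 9.14, 12.5 and 8.67 CPM in IL4 total libraries, without overlap (log2 fold change 1.46, SE 0.45, adjusted p = 0.0381). Neither was called without IFNG total replicate 2, IL4 total replicate 1 or IL4 total replicate 2. Without these, in that order, Usp12 had 1.12, 1.39 and 1.64 (adjusted p = 0.246, 0.135 and 0.0756) and Usp25 1.52, 1.53 and 1.65 (adjusted p = 0.0775, 0.0914 and 0.0798). Usp12 alone was lost without IL4 total replicate 3 (adjusted p = 0.143) or IL4 polysome replicate 2 (adjusted p = 0.0505). Without IFNG total replicate 3, Usp25 was lost (adjusted p = 0.0765) and Usp35 gained (2.03, adjusted p = 0.0303).

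Usp35 had 5.64, 10.7 and 1.64 CPM in IFNG total libraries, against 2.61, 1.84 and 1.33 CPM in IL4 total libraries. These groups overlapped, and the log2 fold change of 1.63 had an SE of 0.65 (adjusted p = 0.129). The log2 fold change of Usp8 was 0.95 (adjusted p = 0.220), that of Usp7 0.69 (adjusted p = 0.369), that of Usp22 0.53 (adjusted p = 0.472), that of Usp9x 0.49 (adjusted p = 0.632) and that of Usp15 0.39 (adjusted p = 0.786). Usp2 again had the most negative value, -1.19 (adjusted p = 0.300), with 1.20, 1.51 and 1.55 CPM in IFNG total libraries, against 3.77, 3.00 and 2.97 CPM in IL4 total libraries.

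**Figure D3:**
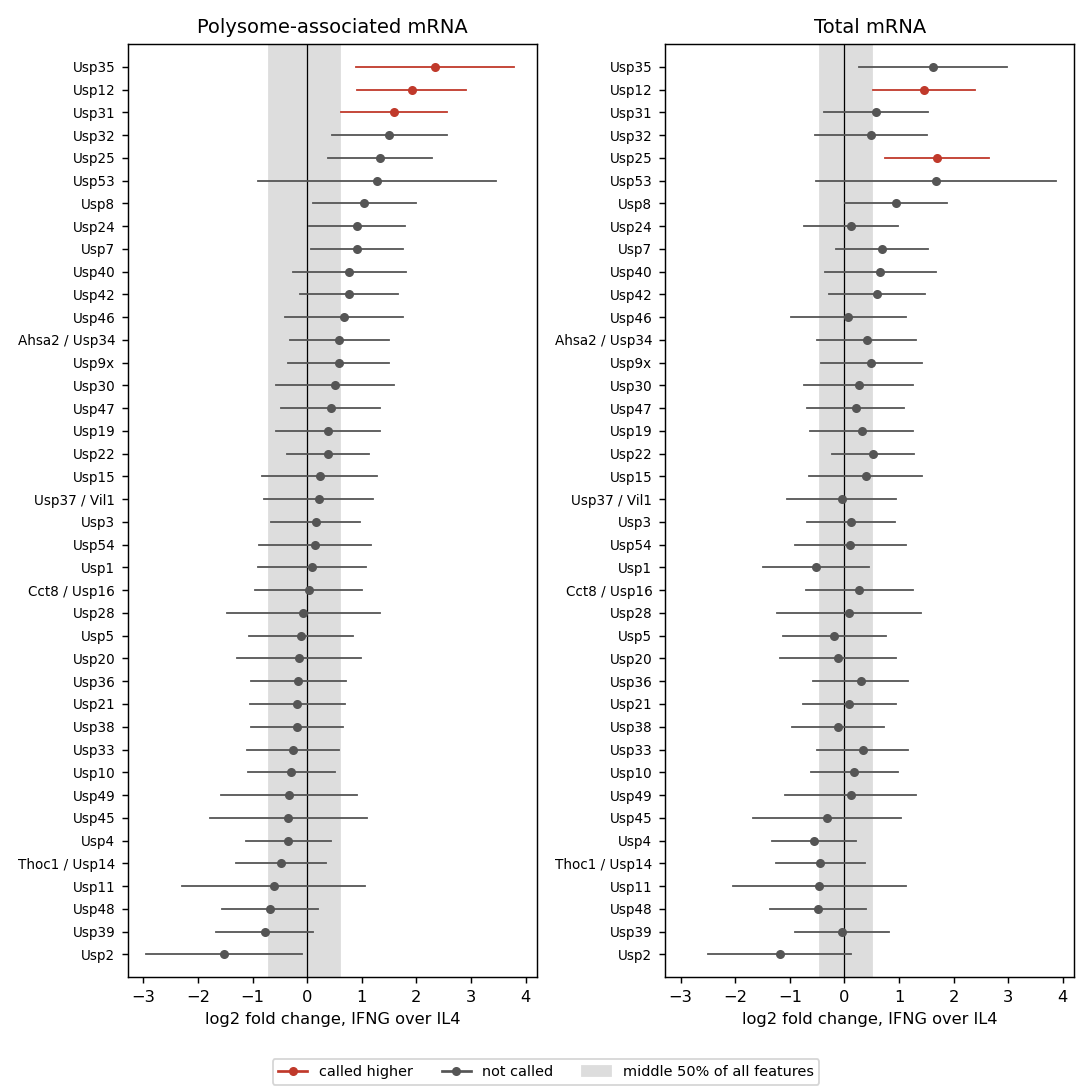
Log2 fold change of IFNG over IL4 in polysome-associated mRNA (left) and in total mRNA (right) for the 40 tested Usp features, in the order of the left panel. Points are edgeR estimates with 95% intervals, red where called higher, and the grey band is the middle 50% of all features. Usp35, Usp12 and Usp31 are red on the left, and Usp12 and Usp25 on the right.

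**Figure D4:**
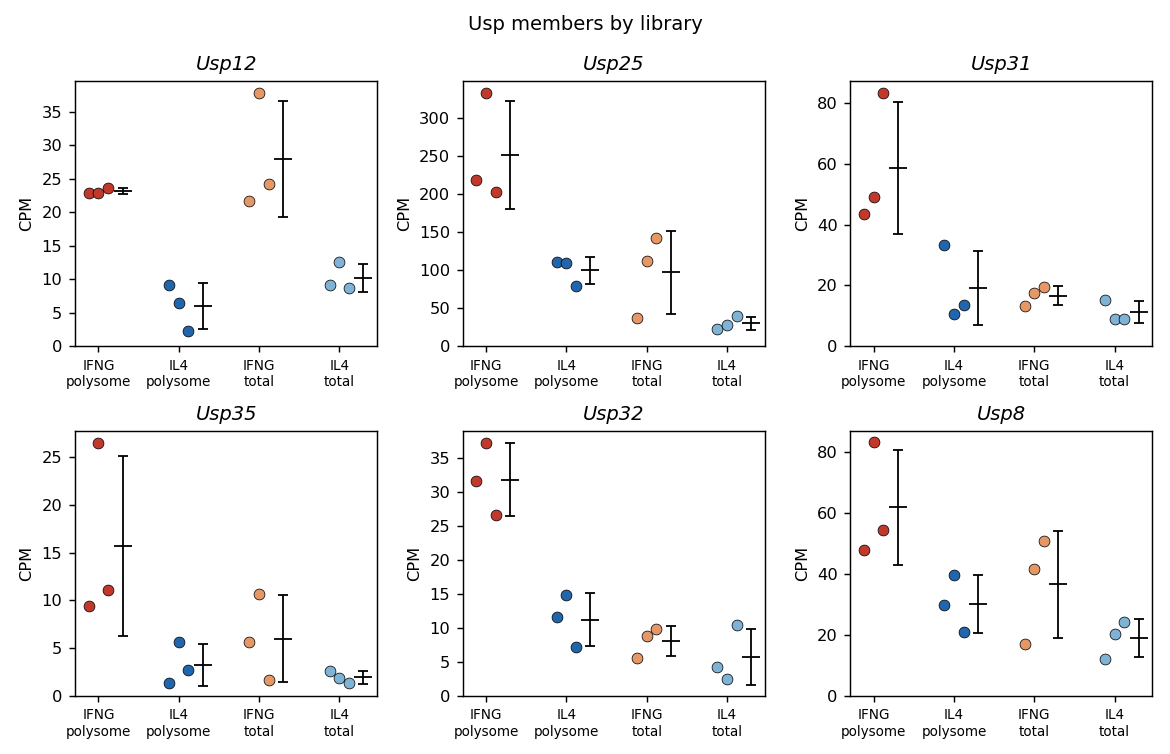
CPM of 6 Usp members in each library of the 4 groups, with the mean and SD of 3 libraries beside the points. Usp12 splits by cytokine in both RNA fractions, and Usp31 and Usp32 have their 3 highest libraries in IFNG polysome.

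The difference between the IFNG against IL4 contrasts of the RNA fractions was tested as an interaction, which asks whether polysome association itself changed with the cytokine. None of the 40 members was called by edgeR's test, against 0% of all features in either direction, and no member had a call with DESeq2 or limma-voom. No member had an unadjusted p under 0.05, against 0.595% of all features higher and 1.09% lower. The smallest unadjusted p-values belonged to Usp31, with a difference of 1.00 on the log2 scale (95% interval -0.34 to 2.35), Usp32, with 1.02 (-0.44 to 2.48), Usp24, with 0.80 (-0.43 to 2.03), and Usp39, with -0.73 (-1.98 to 0.51). Each had an adjusted p of 1.00 by edgeR's test. For Usp12 the difference was 0.45 (-0.89 to 1.79), for Usp25 -0.36 (-1.68 to 0.96) and for Usp35 0.72 (-1.24 to 2.67). The intervals were wide, with a median SE of 0.65 for the members. Over all features the differences ran from -5.77 to 9.43 on the log2 scale, and none was called. The size of difference that this contrast can detect was not tested, so the lack of calls does not show that polysome association was unchanged.

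Other genes of ubiquitin removal were described from lists. Among 35 tested deubiquitinases of other families, 9 (25.7%) were higher and 5 (14.3%) lower on polysomes than in total mRNA, against 22.6% higher and 25.7% lower among all features, and the median log2 fold change was 0.23, against 0.04 for all features. Otud7b and Otud4, enzymes of the ovarian tumour family, had log2 fold changes of 1.91 (SE 0.35, adjusted p = 1.85e-04) and 1.76 (SE 0.32, adjusted p = 1.70e-04), and Vcpip1, a partner of the p97 ATPase, had 1.53 (adjusted p = 3.05e-04). Josd2, of the Josephin family, was lower by a log2 fold change of -2.53 (SE 0.41, adjusted p = 6.28e-05). Between the cytokines, 3 (8.57%) were higher with IFNG on polysomes (Otud1, Tnfaip3 and Zufsp), against 7.54% of all features. On polysomes 1 (2.86%) was lower, the joined feature Anxa9_Fam63a (-1.39, adjusted p = 0.0257), against 6.58% of all features. In total mRNA 4 (11.4%) were higher, the same 3 genes and Vcpip1 (1.34, adjusted p = 0.0385), against 7.08% of all features. None was lower there by edgeR's test, against 3.93% of all features. At an unadjusted p under 0.05, 1 was lower, against 9.26% of all features. Otud1 had a log2 fold change of 3.98 on polysomes (adjusted p = 3.83e-04) and 3.07 in total mRNA (adjusted p = 0.00110). Tnfaip3, the A20 protein that ends NF-kB signalling, had 2.86 on polysomes (adjusted p = 2.62e-04) and 2.36 in total mRNA (adjusted p = 0.00104).

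Of 19 partners of Usp proteins, 3 (15.8%) were higher and 5 (26.3%) lower on polysomes than in total mRNA, against the same 22.6% and 25.7% of all features, with a median log2 fold change of -0.06. Stam, the endosomal partner of Usp8, had a log2 fold change of 1.56 (adjusted p = 2.85e-04) and Mdm4 one of 1.28 (adjusted p = 0.0103), while Adrm1, a ubiquitin receptor of the proteasome, had -1.62 (adjusted p = 2.86e-04) and Sgf29, of the SAGA complex, -1.30 (adjusted p = 0.00132). The Usp7 substrates Daxx and Mdm2 were the 2 of 19 (10.5%) that were higher with IFNG in each fraction. Of all features, 7.54% were higher with IFNG on polysomes and 7.08% in total mRNA. Daxx averaged 114 ± 47.0 CPM in IFNG polysome and 13.0 ± 5.85 CPM in IL4 polysome libraries (log2 fold change 3.10, adjusted p = 1.49e-04), and Mdm2 averaged 75.6 ± 33.6 CPM in IFNG polysome and 19.2 ± 8.24 CPM in IL4 polysome libraries (log2 fold change 1.97, adjusted p = 0.0130; SD, n = 3 each). In total mRNA they had 2.57 (Daxx, adjusted p = 7.27e-04) and 1.57 (Mdm2, adjusted p = 0.0482).

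Ubiquitin, the related modifiers and their activating enzymes had 2 of 15 members (13.3%) higher and 7 (46.7%) lower in polysome-associated than in total mRNA. Among all features, 22.6% were higher and 25.7% lower. The median log2 fold change was -0.90 for the 15 and 0.04 for all features. The 7 lower ones included Sumo3 (-2.90), Nedd8 (-2.72) and Ubb (-2.22), with adjusted p from 1.75e-05 to 6.52e-05. Between the cytokines, Isg15 and its activating enzyme Uba7 were higher with IFNG in both fractions. Isg15, an interferon-induced ubiquitin-like protein, averaged 696 ± 481 CPM in IFNG polysome and 16.3 ± 7.49 CPM in IL4 polysome libraries (SD, n = 3 each), a log2 fold change of 5.43 (adjusted p = 1.74e-06), and had 6.11 in total mRNA (adjusted p = 3.31e-07). Uba7 had 2.02 on polysomes (adjusted p = 0.0150) and 2.80 in total mRNA (adjusted p = 0.00141).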

How the data were processed

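The deposited values used here are raw read counts per gene symbol in 12 libraries, per the file headers. A second deposited column of log2 values, TMM-scaled by the authors, was not used. The submitters' processing notes name mm10, HISAT2, HISAT and limma. How reads were assigned to genes, with which annotation and strand setting, is not given in the sources used here, so reads of overlapping genes, antisense partners and close copies (Usp22, Usp27x and Usp51) cannot be told apart. No label ties a library to an animal, and no 2 libraries held the same counts.

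The counts were fitted with edgeR 4.0.16 (R 4.3.3) in 1 robust quasi-likelihood model of the 4 groups, after filterByExpr had left 10421 features, with TMM scaling. The 4 contrasts were tested, adjusted p-values are Benjamini-Hochberg values over all features, and a call needs an adjusted p under 0.05. SE is the log2 fold change over the root of F, and intervals are 95%. CPM uses TMM-scaled libraries, on which 3 counts are 0.184 to 1.13 CPM. DESeq2 1.42.0, limma-voom (limma 3.58.1) and other settings were alternatives. The fitting was tested on simulated data. A few genes and motifs of the lists are not reported here.

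Members, roles and lists were chosen with earlier results of these data known. Named were all called members (the 12 largest where more were called, with the others after their values were seen), the 4 of smallest p where none was called, members by role and up to 4 called genes a list. Usp2, Usp30, Usp35, Usp40, Usp42, Usp46, Usp47, Usp19, the members just outside the threshold, the relatives, the GC box and TATAAA were added after their values were seen. Levels were not compared between members, since transcript lengths were not used here. Deviations from the group mean were set against the replicate numbers. Between IFNG and IL4 libraries of the same number they correlated at 0.185 to 0.663 in total and 0.111 to 0.282 in polysome libraries, over 0.1 in each pair. Between IFNG and IL4 libraries of different numbers they correlated at -0.560 to 0.318 in total and -0.287 to 0.134 in polysome libraries. These ranges overlap, and whether the numbers mark pairs is not labelled. Polysome and total libraries of the same number and cytokine reached -0.0236 to 0.352 with IFNG and 0.0176 to 0.286 with IL4.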

Additional observations from a re-analysis of the deposited data

How the results depend on the processing

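Usp members higher with IFNG on polysomes numbered 5 with RLE size factors, with no filter on low counts, with DESeq2, with the replicate block, with Lars2 reads left out and with only the 2 groups compared, in place of 3, and 6 with the replicate block within each RNA fraction, a setting added after seeing the data. Each of these counts held Usp12, Usp31 and Usp35. Limma-voom gave 0 members lower on polysomes than in total mRNA, in place of 1 (Usp5), against 24.3% of all features. The cause of these changes was not tested. The replicate block also gave 20 members higher on polysomes than in total mRNA, in place of 16. The share of all features higher there was 24.1%, in place of 22.6%. This block changed no other count of member calls by over 1.5 times. Leaving out 1 library at a time gave 0 to 2 members higher in total mRNA, 0 to 5 higher on polysomes, 15 to 20 higher and 0 to 1 lower in polysome against total mRNA, and 0 for the interaction. The 5 came without IFNG total replicate 1, 2 or 3. Of all features, the fits without 1 library called 4.83 to 7.57% higher with IFNG in total mRNA and 4.67 to 9.48% on polysomes. For polysome against total mRNA, 18.0 to 23.6% were higher and 22.4 to 26.4% lower. Leaving out Lars2 reads moved the median log2 fold change of all features from 0.04 to -0.09 for polysome against total mRNA and from -0.06 to 0.06 for IFNG against IL4 on polysomes. None of the called members, nor of the few others recomputed with them, changed the sign of its log2 fold change under these settings, and members outside that selection were recomputed as counts only. At 2563955 to 8789480 counts, polysome libraries limit what is said of members at a few CPM, such as Usp2 and Usp53.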

Other observations

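The spread between replicates of the tested Usp members was described beside that of all features. The median coefficient of variation of CPM among the 40 members was 28.3% in IFNG polysome, 32.1% in IL4 polysome, 37.4% in IFNG total and 27.1% in IL4 total libraries. Over all features it was 39.4% in IFNG polysome, 35.6% in IL4 polysome, 42.4% in IFNG total and 28.7% in IL4 total libraries. These are values with no test. Usp22, for example, had 105, 103 and 104 CPM in the IFNG polysome group, while Cct8_Usp16 in the same libraries had 182, 127 and 42.1 CPM.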
